A study of Mus musculus with 20 samples.

Results

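The liver of mice that ate a high fat diet with nori extract was compared with the liver of mice that ate the high fat diet alone. Nori is the edible red alga from which the extract and its sulphated polysaccharide, porphyran, are prepared. The comparison rests on 2 of the 20 one-colour expression arrays of the series, and 14974 of the 21154 genes named on the array were measured, that is, well above background on at least 1 of those 2 arrays. Male C57BL/6J mice entered the feeding study at 5 weeks of age and stayed on their diet for 13 weeks. HFD+Ex was the high fat diet (60% of energy as fat) with 2% of nori extract by weight, and HFD+PP was the same diet with 2% porphyran. HFD was the high fat diet with nothing added, and CD was the control diet with 10% of energy as fat. Each array held liver RNA of 7 mice combined into 1 pool, so a diet has 1 array, the spread between mice is not known, and no difference below carries a test.

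Dietary fat and cholesterol set the work of the liver. When sterols in the endoplasmic reticulum of hepatocytes run low, the transcription factor SREBP-2 is released and switches on the enzymes that build cholesterol from acetyl-CoA. On a long high fat diet, mouse hepatocytes fill with lipid droplets coated by proteins more typical of fat cells. Recruited macrophages and matrix-producing stellate cells then add genes of inflammation and scarring to the liver's RNA.

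A level is the log2 of a gene's signal over the 75th percentile of its array, and a difference is a level with extract minus a level on HFD alone. A gene was said to rise or fall when it differed by at least 2-fold, a log2 difference of at least 1. For a gene that only 1 of the 2 arrays showed well above background, the detection floor of the other array took the place of its level there, and the difference is given as "at least". Of the 14974 measured genes, 218 were higher (1.46%) and 211 were lower (1.41%) with extract, and the median difference was 0.03. The counts were 30 higher and 43 lower after normexp background correction, and 192 higher and 73 lower without genes at least 4 times brighter in another tissue of the series. Among the 14060 genes well above background on both arrays, 71 were higher (0.505%) and 154 lower (1.1%), and 92.2% lay within 0.5 of no difference. Replicate spots well above background gave a technical standard deviation of 0.098 for a difference, from the median probe of each array. It leaves out all variation between mice and does not describe dim genes. Among genes measured on both arrays, differences spread more widely at low level. Their quartiles were -0.29 and 0.25 for the 1758 lowest genes, and -0.003 and 0.14 for the 1758 highest. The 20 hepatocyte markers were all well above background on both arrays, with a median difference of 0.07.

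The HFD+Ex array stood apart from the other 3 liver arrays in where its bright spots lay. All 4 were on the same slide, but HFD+Ex was in its second row of arrays and the other 3 in its first, so place on the slide and diet cannot be told apart. Of the 218 genes higher with extract, 198 had their spots in rows 1 to 192 of the array's 384 rows, which is 2.69% of the 7351 genes measured there with 1 spot. Rows 193 to 384 held 20 of them, or 0.272% of 7348 such genes. Genes lower with extract made up 1.39% of those in rows 1 to 192 and 1.40% of those in rows 193 to 384, with the highest share, 1.72%, in rows 337 to 384. Spots bright on 1 array of a tissue and near background on its 3 others were counted on all 20 arrays. The 9 arrays in the second row of a slide had 85.0% to 97.9% of such spots in rows 1 to 192, and the 11 arrays in the first row had 11.8% to 57.8%. The HFD liver array had 122 such spots, of which 64 lay in rows 337 to 384. Without probes in rows 1 to 192, 24 genes were higher and 114 lower among 8385 measured. For this reason, rises in liver below are given with their place on the array.

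**Figure D1:**
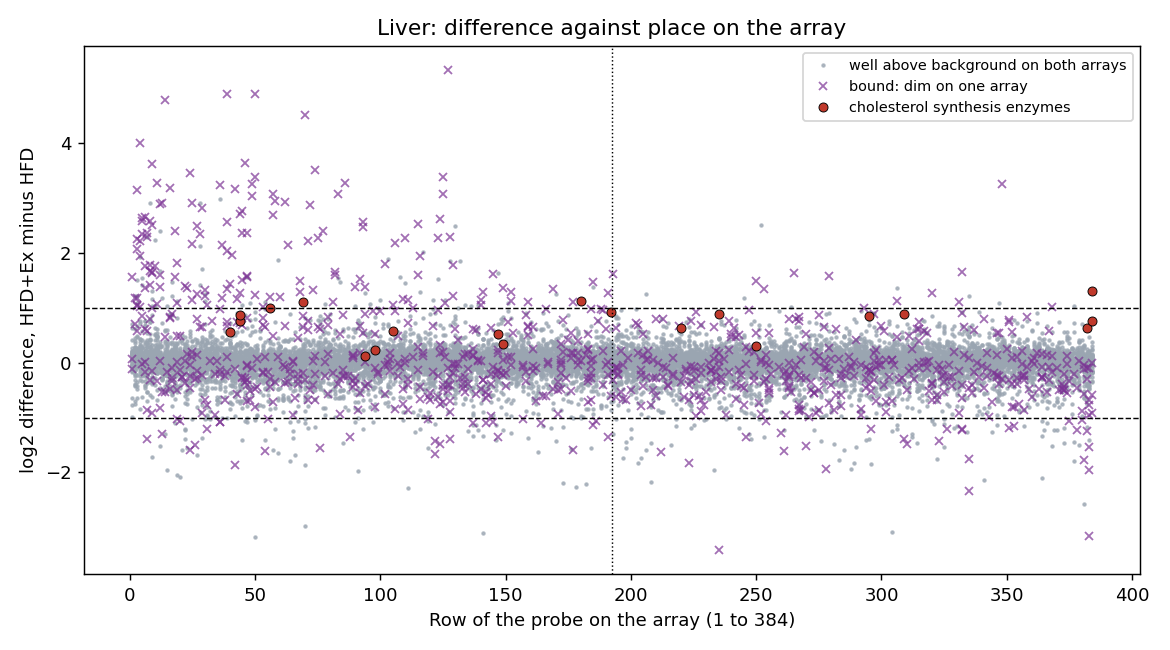
Log2 difference (HFD+Ex minus HFD, vertical axis) of each of the 14974 measured genes against the row of its probe on the array (horizontal axis). Grey points were well above background on both arrays, purple crosses are bounds and red circles are the 20 cholesterol synthesis enzymes. Dashed lines mark 2-fold and the dotted line splits the array after row 192. Points above 2-fold crowd left of the dotted line, while points below the lower line and the red circles lie across the whole width.

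Cholesterol synthesis had the highest median difference of the 46 lists and was the only list with every measured member above 0. Respiratory chain subunits were above 0 in 29 of 30, but with a median of 0.07. The 20 enzymes of the path from acetyl-CoA to cholesterol had differences from 0.12 to 1.31 and a median of 0.76, against 0.03 over all measured genes. Of these, 4 rose, where 1.46% of all measured genes did, and none fell. Sqle (row 384), Idi1 (row 69) and Mvd (row 56) were among those that rose, and 16 of the 20 differed by at least 0.5. The spots of the 20 ran from row 40 to row 384, with 12 in rows 1 to 192 and 8 in rows 193 to 384. Of the 4 that rose, 3 lay in rows 1 to 192. Without any probe in rows 1 to 192, 9 enzymes remained measured and their median was 0.85. Genes of high level were shifted slightly upward in general: the 1758 genes with the highest levels had a median difference of 0.07.

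In the upper path, Idi1, which isomerises the 5-carbon unit of all sterols, had a level of 5.52 in HFD+Ex, 4.96 in HFD+PP, 4.41 in HFD and 4.60 in CD liver, 2.16-fold higher with extract than on HFD. Sqle, squalene epoxidase, the first step that uses oxygen, had 4.42 in HFD+Ex, 3.66 in HFD+PP, 3.11 in HFD and 3.82 in CD liver (2.48-fold). For both, HFD+Ex was the highest and HFD the lowest of the 4 livers. Mvd, mevalonate diphosphate decarboxylase, had a level of 1.23 in HFD+Ex, 0.31 in HFD+PP, 0.23 in HFD and 0.65 in CD liver, a 2.00-fold difference that lay at the threshold. HFD+Ex held the highest level of the 4 livers for 19 of the 20 enzymes. The exception was Sc5d, a late desaturase, with 6.73 in HFD+Ex, 6.37 in HFD+PP, 6.43 in HFD and 6.82 in CD liver.

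The members that stayed under 2-fold still leaned upward. Cyp51, the lanosterol demethylase, differed by 0.93, and Fdps, which makes farnesyl diphosphate, by 0.88. Pmvk and Mvk, the mevalonate kinases of the middle of the path, differed by 0.87 and 0.63. Nsdhl, Lss, Msmo1 and Tm7sf2, which close and modify the sterol rings, differed by 0.86, 0.85, 0.76 and 0.76. The smallest difference was 0.12, for Acat2, which condenses acetyl-CoA at the start of the path.

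**Figure D2:**
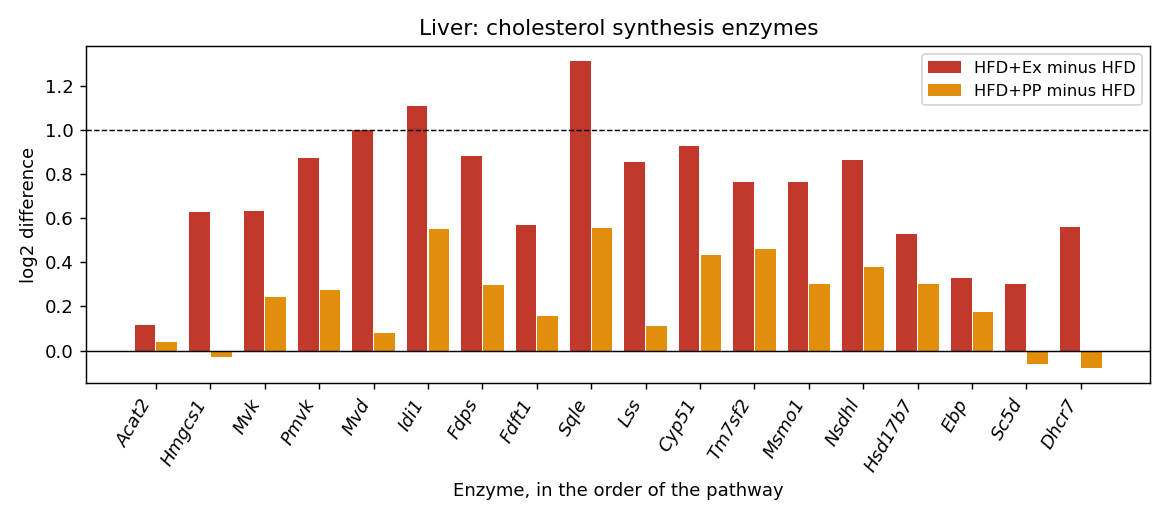
Log2 difference from HFD liver (vertical axis) of 18 cholesterol synthesis enzymes in the order of the pathway (horizontal axis), for HFD+Ex (red bars) and HFD+PP (orange bars); the dashed line marks 2-fold. All 18 red bars are above 0 and 3 reach the line. Both sets of bars are taken from the same HFD array.

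The promoters of 3 enzymes are shown because the pathway is the clearest rise and its known switches act through short DNA elements: Idi1 and Mvd rose, and Hmgcs1, an early synthase of the path, is the enzyme whose promoter holds the sterol element searched for. Each runs 5′ to 3′ from 250 bases before the transcription start to 50 after it, from the RefSeq table of build GRCm38.p6. Capitals mark TCACNCCAC, a form of the sterol regulatory element bound by SREBP proteins, and CCAAT, the box bound by NF-Y, each searched on both strands.
Idi1, chr13:8885356-8885655, plus strand: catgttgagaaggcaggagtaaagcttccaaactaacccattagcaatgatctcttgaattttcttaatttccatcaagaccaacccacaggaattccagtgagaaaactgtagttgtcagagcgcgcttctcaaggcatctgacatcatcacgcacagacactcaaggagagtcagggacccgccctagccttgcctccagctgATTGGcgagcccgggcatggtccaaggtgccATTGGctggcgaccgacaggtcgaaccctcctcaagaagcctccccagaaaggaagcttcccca
Mvd, chr8:122443373-122443672, minus strand: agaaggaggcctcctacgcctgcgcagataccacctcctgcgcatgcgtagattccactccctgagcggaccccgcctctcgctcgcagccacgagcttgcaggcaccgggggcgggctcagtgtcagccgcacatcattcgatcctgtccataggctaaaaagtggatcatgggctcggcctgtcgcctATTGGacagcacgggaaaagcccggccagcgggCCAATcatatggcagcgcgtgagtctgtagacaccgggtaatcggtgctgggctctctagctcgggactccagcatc
Hmgcs1, chr13:119690101-119690400, plus strand: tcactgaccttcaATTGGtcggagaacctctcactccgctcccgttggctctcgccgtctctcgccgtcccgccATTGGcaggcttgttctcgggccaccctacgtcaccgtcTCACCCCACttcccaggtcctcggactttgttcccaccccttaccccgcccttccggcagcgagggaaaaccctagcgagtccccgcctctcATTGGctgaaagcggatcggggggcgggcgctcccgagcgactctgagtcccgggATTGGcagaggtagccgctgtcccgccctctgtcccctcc
The table held 15 of the 20 enzymes, with 18 promoters in all. TCACNCCAC was found in 1 of those 18 promoters, at bases 114 to 122 of Hmgcs1, and in 1.24% of the table's 32851 promoters. CCAAT was found in 14 of the 18, among them the 3 printed, and in 37.4% of all promoters. These are matches of letters and no measure of binding. Hmgcs1 itself had a level of 6.68 in HFD+Ex, 6.03 in HFD+PP, 6.06 in HFD and 5.63 in CD liver, 1.55-fold higher with extract than on HFD.

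The genes that sense and import sterols were less uniform. Of 12 measured members none passed 2-fold, 9 were above 0 and the median was 0.19. Stard4, a cholesterol carrier protein, differed by 0.69 and Insig1, which holds SREBP-2 back in the endoplasmic reticulum, by 0.63. Both are known targets of SREBP-2. Srebf2, the gene for SREBP-2 itself, differed by 0.17, and by -0.16 on its other measured probe. The related Insig2 went the other way, with 4.60 in HFD+Ex, 4.82 in HFD+PP, 5.28 in HFD and 4.97 in CD liver, a difference of -0.68.

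The same 20 enzymes did not stand above 0 as a list in the other tissues of the same mice. The median of HFD+Ex minus HFD was -0.32 in mesenteric fat, -0.01 in brown fat, -0.14 in ileum and -0.14 in colon. In liver, porphyran gave a median of 0.26 against the same HFD array, with no enzyme past 2-fold upward, as 0.579% of all genes measured there were. Set directly against HFD+PP liver, HFD+Ex was higher for all 20, by a median of 0.49, with no enzyme past 2-fold (1.38% of all measured genes). HFD minus CD had a median of -0.20.

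Bile acid synthesis, the main exit route of cholesterol, showed no member past 2-fold among 15, with a median of 0.12. Cyp7a1, the rate-limiting enzyme of the classical route, had a level of 4.05 in HFD+Ex, 4.20 in HFD+PP, 3.47 in HFD and 3.06 in CD liver, a difference of 0.58. Cyp8b1, which sets the amount of cholic acid, differed by 0.07, and Cyp27a1, which opens the alternative route, by 0.27. The 13 genes of sterol export and the LXR receptors had a median of 0.04.

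Fatty acid genes moved little outside the lipid droplet. Of 25 genes of fatty acid and triglyceride synthesis 1 fell, where 1.41% of all measured genes did, and the median was 0.09. Fasn, fatty acid synthase, had a level of 1.95 in HFD+Ex, 1.08 in HFD+PP, 1.86 in HFD and 3.64 in CD liver. All 3 high fat livers lay below CD, and HFD+Ex differed from HFD by 0.09. Scd1, the stearoyl-CoA desaturase, differed by -0.23 and Srebf1, the lipogenic member of the SREBP family, by -0.20. The member that fell was Mogat1, a monoacylglycerol acyltransferase known to be raised in fatty mouse liver, with 0.06 in HFD+Ex, 0.06 in HFD+PP, 1.43 in HFD and -1.47 in CD liver. The 31 genes of fatty acid oxidation and PPAR-alpha targets had none past 2-fold and a median of -0.04. Cpt1a, the gate of mitochondrial oxidation, differed by -0.02.

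Genes for proteins of the lipid droplet surface held the lowest difference among genes well above background on both arrays. Predicted genes and genes with another probe going the other way were left out of this ranking. Cidea, which fuses droplets and is normally a brown fat protein, had a level of 1.33 in HFD+Ex, 1.02 in HFD+PP, 4.51 in HFD and -2.78 in CD liver, 9.06-fold lower with extract than on HFD. Cidec, its white fat relative, had 3.15 in HFD+Ex, 2.76 in HFD+PP, 4.70 in HFD and 0.42 in CD liver (2.93-fold lower). Both supplemented livers lay between HFD and CD. Fabp4, a fatty acid carrier of fat cells and macrophages, was 2.07-fold lower, with 2.36 in HFD+Ex, 2.50 in HFD+PP, 3.41 in HFD and 1.64 in CD liver. These 3 were the droplet and lipid uptake genes that fell among 21 measured, where 1.41% of all measured genes fell. None rose, and the list's median was -0.21. The coats that every fatty hepatocyte carries changed less, with -0.27 for Plin2 and 0.04 for Plin5. Cd36, a fatty acid importer, differed by -0.62, Plin4 by -0.84 and Pparg, the regulator of the fat cell programme, by -0.25. The 12 members that are not at least 4 times brighter in another tissue of the series had a median of 0.0095 and none past 2-fold.

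Markers of fat cells themselves were read beside these values, because Cidec and Fabp4 are among them. Of 7 measured adipocyte markers 3 fell, namely Cfd, Cidec and Fabp4, where 1.41% of all measured genes fell. Cfd, the complement factor adipsin, had 1.41 in HFD+Ex, 2.02 in HFD+PP, 3.69 in HFD and -3.22 in CD liver, 4.86-fold lower with extract. Summed over the 7, the signal was 18.6 in HFD+Ex, 18.5 in HFD+PP, 51.6 in HFD and 6.34 in CD liver, in multiples of the 75th percentile. Cfd, Cidec and Fabp4 made up most of this sum in each liver, so the sum mainly restates their single values. Of the defining hormones and coats, Lep and Plin1 were not well above background on either array, and Adipoq, adiponectin, was not well above background in HFD+Ex liver and was so in HFD liver, with measured levels of -5.28 in HFD+Ex and -3.78 in HFD liver. The part of fat tissue in the pools was not tested. In a bulk pool, fewer cells of a type and less RNA per cell cannot be told apart, here and in the groups that follow.

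**Figure D3:**
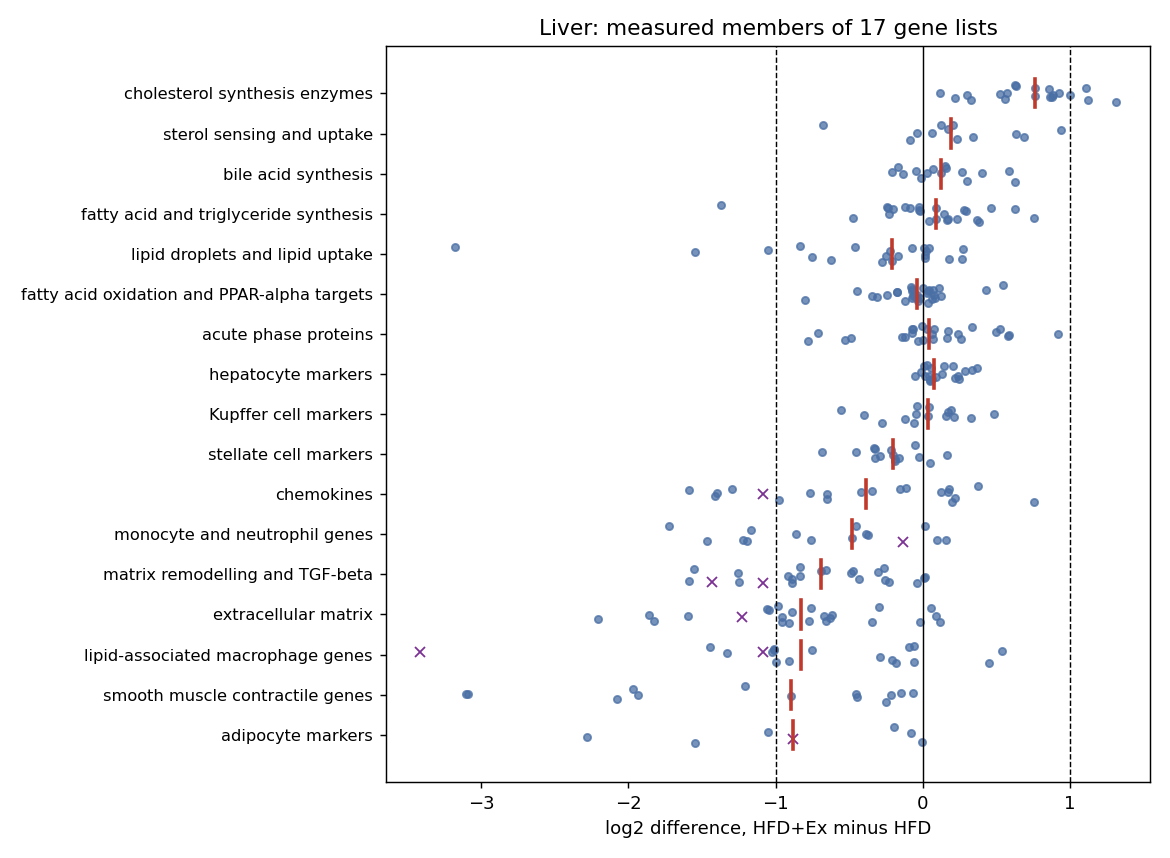
Log2 difference (HFD+Ex minus HFD, horizontal axis) of the measured members of 17 gene lists. Blue points were well above background on both arrays, purple crosses are bounds, red bars are list medians and dashed lines mark 2-fold. The cholesterol synthesis list lies wholly to the right of 0, and the lists of matrix, smooth muscle and macrophage genes lie mostly to the left.

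Extracellular matrix genes were lower with extract. Of 24 measured members 7 fell, where 1.41% of all measured genes did, and none rose; 21 were below 0 and the median was -0.83. Col1a1, a chain of fibrillar collagen I, had a level of 0.40 in HFD+Ex, 0.35 in HFD+PP, 2.61 in HFD and -0.68 in CD liver, 4.62-fold lower with extract than on HFD. Col3a1, collagen III, had 1.31 in HFD+Ex, 1.41 in HFD+PP, 3.18 in HFD and 0.66 in CD liver (3.64-fold lower). Col1a2, the second chain of collagen I, had 2.54 in HFD+Ex, 2.57 in HFD+PP, 4.13 in HFD and 2.03 in CD liver (3.03-fold lower). In each, the livers with extract and with porphyran were close to one another and nearer to CD than to HFD. Thbs1, the adhesive protein thrombospondin 1, was 3.55-fold lower, and Col5a2 and Col6a3 were 2.08-fold and 2.06-fold lower. Col12a1 was at least 2.34-fold lower and not well above background in HFD+Ex liver. Fn1, fibronectin, which hepatocytes secrete in bulk, differed by 0.09. Most members are at least 4 times brighter in another tissue of the series than in liver, and the 5 that are not had a median of -0.30 with none fallen.

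Enzymes and regulators of the matrix followed the same direction. Of 23 measured members of matrix remodelling and TGF-beta signalling 6 fell (1.41% of all measured genes did), none rose, and the median was -0.69. Timp1, the secreted inhibitor of matrix proteases, had -1.85 in HFD+Ex, -2.33 in HFD+PP, -0.30 in HFD and -4.03 in CD liver (2.94-fold lower). Mmp13, a collagenase, fell by 1.59 on the log2 scale. Loxl1, which cross-links elastin, was 2.39-fold lower and Tgfb2, a TGF-beta ligand, 2.37-fold lower. The protease genes Plat and Mmp12 were at least 2.69-fold and at least 2.12-fold lower, although Mmp12 differed by 0.016 as the median over its probes. Tgfb1 differed by less than 0.01, at -1.10 in HFD+Ex and -1.11 in HFD liver. The 15 markers of stellate cells, which make most scar collagen in liver, held none past 2-fold and had a median of -0.21, with -0.69 for Pdgfrb, the receptor of their main growth signal, and -0.33 for Lrat, which stores vitamin A.

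Contractile genes of smooth muscle were lower with extract than on every other diet in their most affected members. Of 13 measured members 6 fell, where 1.41% of all measured genes did, all 13 were below 0 and the median was -0.90. Actg2, the gut-type smooth muscle actin, had -3.92 in HFD+Ex, -1.83 in HFD+PP, -0.82 in HFD and -2.70 in CD liver (8.59-fold lower than on HFD). Cnn1, calponin, had -3.13 in HFD+Ex, -1.05 in HFD+PP, -0.04 in HFD and -1.88 in CD liver (8.51-fold lower). Acta2, the smooth muscle actin also made by activated stellate cells, had -0.60 in HFD+Ex, 0.55 in HFD+PP, 1.47 in HFD and 0.07 in CD liver (4.22-fold lower). Unlike the collagens, these 3 had their lowest level with extract, below that of the control diet. Myh11, smooth muscle myosin, was 3.82-fold lower, Synpo2, an actin-binding protein, 3.92-fold and Myl9, the regulatory light chain, 2.31-fold. Taken as the median over its probes, Synpo2 differed by 0.24. Myl9 had no usable spot on the HFD+PP array. Under normexp background correction the list's median was -0.57 with 4 members fallen, and it was -0.45 when its 4 dim members were kept. Direct comparison with HFD+PP liver gave 4 of 12 members lower, where 0.392% of all measured genes were, and a median of -0.18. Among mesothelial markers, the cells of the liver's outer covering, 1 of 11 fell (Wt1, 2.11-fold) and the median was -0.47, and their summed signal was 5.32 in HFD+Ex, 5.52 in HFD+PP, 5.83 in HFD and 5.34 in CD liver. How much vessel wall or capsule each pool held was not tested.

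Genes of lipid-associated macrophages, the cells that gather around dying fat-laden cells, were lower with extract. Of 18 measured members 7 fell, where 1.41% of all measured genes did, none rose, 16 were below 0 and the median was -0.83. Gpnmb, a membrane glycoprotein of these cells, was at least 10.7-fold lower: it was not well above background in HFD+Ex liver, at -4.88, against -1.24 in HFD liver. Trem2, their lipid receptor, had -0.77 in HFD+Ex, -0.88 in HFD+PP, 0.56 in HFD and -1.54 in CD liver (2.52-fold lower, row 364). Cx3cr1, the fractalkine receptor, had -2.00 in HFD+Ex, -2.05 in HFD+PP, -0.55 in HFD and -2.96 in CD liver (2.73-fold lower, row 377). Spp1, osteopontin, which bile duct cells also make, was 2.01-fold lower, Itgax, the integrin CD11c, 2.02-fold and the protease gene Ctsk 2.04-fold. Atp6v0d2, a proton pump subunit, went the other way by 0.54 and Fabp5 by 0.45. Cd68, a marker of macrophages in general, differed by -0.29. The median was -0.52 for the 16 members measured on both arrays, -0.49 after normexp, with 2 fallen, and -0.080 for the 6 members not typical of another tissue, of which 2 fell.

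Resident macrophages did not share this. The 15 Kupffer cell markers had none past 2-fold and a median of 0.03. Clec4f, the lectin that defines Kupffer cells in mice, had 3.97 in HFD+Ex, 3.95 in HFD+PP, 3.78 in HFD and 4.07 in CD liver. Adgre1, the F4/80 antigen, differed by -0.05. Blood-borne myeloid genes were lower, with 5 of 15 fallen (1.41% of all measured genes) and a median of -0.48. Chil3, a lectin-like protein of recruited macrophages, was 3.30-fold lower, Retnlg, a neutrophil gene, 2.76-fold, and Ccr2, the receptor that brings monocytes to tissue, 2.33-fold (row 369).

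Chemokines, the ligands that draw such cells, were also lower in part. Of 20 measured chemokines 5 fell, where 1.41% of all measured genes did, none rose and the median was -0.38. Ccl2, the main ligand of Ccr2, had -0.69 in HFD+Ex, -0.29 in HFD+PP, 0.70 in HFD and -1.86 in CD liver (2.63-fold lower). Ccl7, another ligand of Ccr2, fell by 1.59 on the log2 scale, and Ccl3 and Ccl4, which attract several white cells, were 2.66-fold and 2.46-fold lower. Cxcl5, which attracts neutrophils, was at least 2.12-fold lower. Cxcl13, a B cell attractant, differed by 0.75 and Cxcl1 by 0.37. Tnf, the cytokine, was not well above background in HFD+Ex liver, with -5.12 in HFD+Ex and -4.54 in HFD liver. The 20 measured cytokines and receptors had none past 2-fold and a median of -0.25.

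Hepatocyte-made inflammation genes did not fall with them. The 26 measured acute phase proteins had none past 2-fold and a median of 0.04. Saa1, serum amyloid A, had 7.34 in HFD+Ex, 6.05 in HFD+PP, 6.75 in HFD and 4.07 in CD liver. Saa2 had 7.79 in HFD+Ex, 6.40 in HFD+PP, 7.21 in HFD and 4.16 in CD liver. Both were highest with extract, by 0.58 over HFD. Saa3, the form made by macrophages, differed by -0.78 and Lcn2, lipocalin 2, by -0.49.

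**Figure D4:**
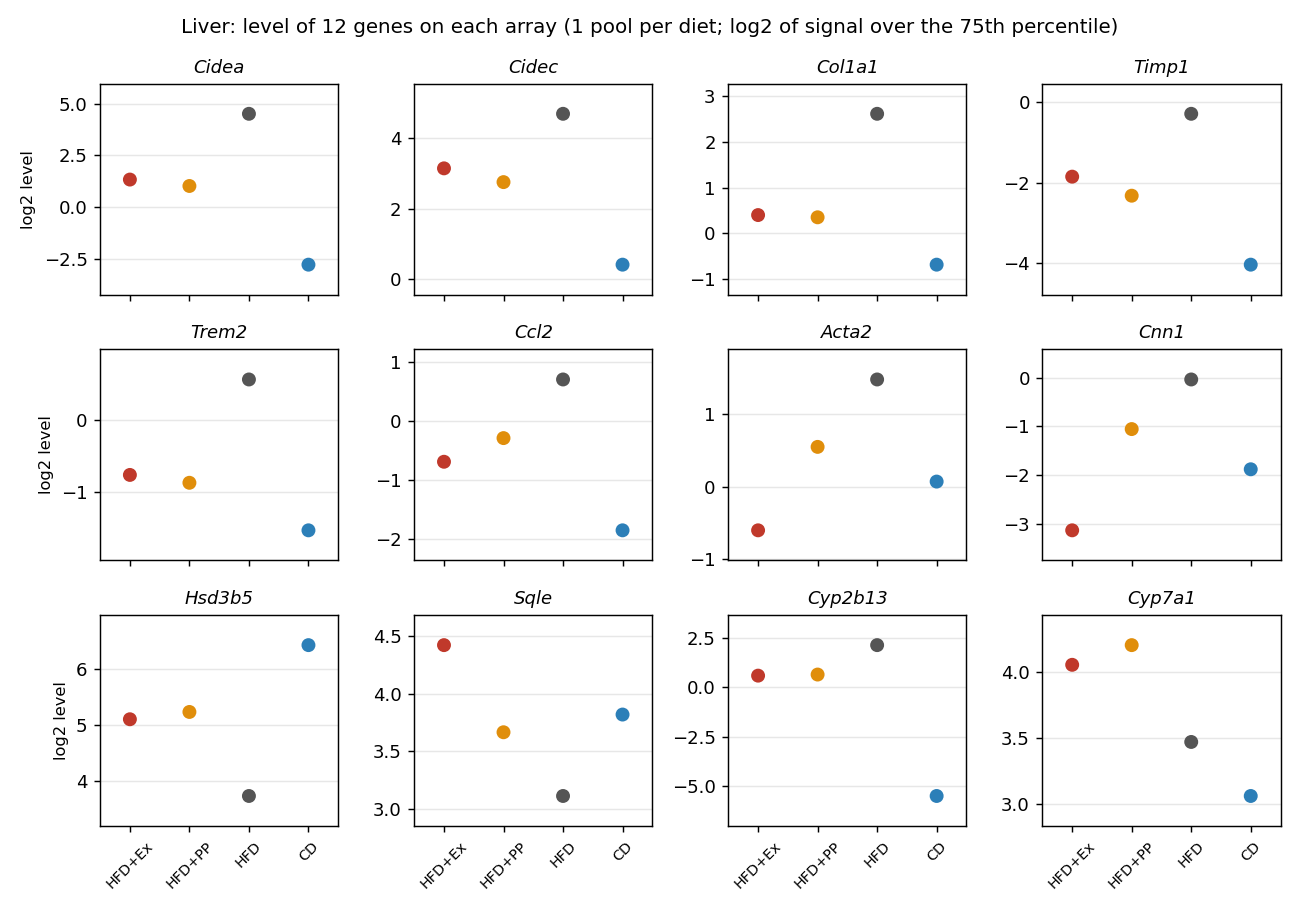
Level (log2 of signal over the 75th percentile, vertical axes, scaled for each gene) of 12 genes on the 4 liver arrays (horizontal axis, HFD+Ex, HFD+PP, HFD, CD; 1 pool per diet). Droplet, matrix, macrophage and chemokine genes are highest in HFD; Acta2 and Cnn1 are lowest in HFD+Ex; Sqle is highest in HFD+Ex.

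Lists of immediate early genes, of the cell cycle and of liver tumours and the ductular reaction were also read against the 1.41% of all measured genes that fell. Of 22 measured immediate early genes 3 fell: Egr2 (4.15-fold lower), Atf3 (2.81-fold) and Fos (2.35-fold), and the median was -0.31. Egr1 and Zfp36 differed by -0.01 and 0.02, so the early response genes did not move as one. Of 29 cell cycle genes 2 fell, Cdkn1a, the p21 inhibitor (2.64-fold), and Mcm2 of the replication helicase (2.01-fold), while 24 were below 0 and the median was -0.30. Of 15 measured tumour and ductular genes 5 fell and the median was -0.80. Anxa2, a membrane-binding annexin, had 3.44 in HFD+Ex, 3.54 in HFD+PP, 4.87 in HFD and 2.78 in CD liver (2.69-fold lower), and Ly6d, a surface antigen, was 3.60-fold lower.

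Among genes that male and female mouse livers express differently, 1 of 20 measured male-biased genes rose and 1 of 16 female-biased genes fell. Over all measured genes, 1.46% rose and 1.41% fell. Hsd3b5, a steroid reductase typical of males, had 5.11 in HFD+Ex, 5.24 in HFD+PP, 3.74 in HFD and 6.43 in CD liver, 2.58-fold higher with extract (row 185). Cyp2b13, a cytochrome typical of females, had 0.60 in HFD+Ex, 0.65 in HFD+PP, 2.14 in HFD and -5.49 in CD liver, 2.91-fold lower. In CD liver Cyp2b13 was not well above background. For both genes, the supplemented livers stood between HFD and CD. The lists as a whole lay near 0, with medians of -0.01 over 20 measured male-biased genes and -0.19 over 16 female-biased genes. The CAR target Cyp2b10 differed by -0.64, and Cyp3a11, the main PXR target, by -0.35.

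Of 26 genes that make and use glucose 1 rose, where 1.46% of all measured genes did. It was Onecut1, a transcription factor of hepatocyte identity, with -0.16 in HFD+Ex, -1.23 in HFD+PP, -1.45 in HFD and -0.18 in CD liver (2.44-fold higher, row 116). Pck1 and G6pc, the gates of glucose production, differed by 0.26 and -0.39. Of 28 measured genes of ceramide and sphingomyelin metabolism 1 fell, where 1.41% of all measured genes did. It was Smpd3, neutral sphingomyelinase 2, with -1.03 in HFD+Ex, -2.07 in HFD+PP, 0.04 in HFD and -2.22 in CD liver (2.09-fold lower). The ceramide synthases Cers2 and Cers6 differed by -0.11 and -0.16.

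The highest single genes with extract could not be read in the same way as these groups. Among the 15 highest that were well above background on both arrays, 14 lay in rows 1 to 192, led by Xlr, an X-linked gene of lymphocytes (7.90-fold, row 36), Tmcc2 (7.52-fold, row 8) and Rnf32 (7.44-fold, row 28). Xlr had -1.42 in HFD+Ex, -4.04 in HFD+PP, -4.40 in HFD and -3.75 in CD liver, and the pattern of 1 bright array was common to them. The exception by place was Adgrf1 (row 252), an adhesion receptor, with -0.98 in HFD+Ex, -1.48 in HFD+PP, -3.47 in HFD and 0.38 in CD liver (5.63-fold higher). The 6 largest bounds, from at least 12.4-fold for Trem3 to at least 40.0-fold for the odorant receptor gene Olfr26, all lay in rows 1 to 192 and were not well above background on the other 3 liver arrays. In all, 116 of the 218 higher genes were not well above background on any of those 3 arrays, and HFD+Ex was at least 1 above all 3 in 157 of the 218. Of 168 measured odorant receptor genes 17 were higher, 15 of them in rows 1 to 192, and 2 were lower, beside 1.46% higher and 1.41% lower over all measured genes.

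Among the 15 lowest genes measured on both arrays, 10 lay in rows 1 to 192 and 5 in rows 193 to 384. Of all 211 lower genes, 122 had a level on the HFD array at least 1 above that on the 3 other liver arrays. Besides those above, Sdcbp2, a syntenin, was 7.81-fold lower, with -4.03 in HFD+Ex, -4.87 in HFD+PP, -1.06 in HFD and -5.05 in CD liver. Asrgl1, an asparaginase (row 381), was 5.95-fold lower and Obp2a, an odorant-binding protein, 4.81-fold lower. All 3 were high on the HFD array alone. Cpe, a carboxypeptidase of secretory granules, was 4.39-fold lower, with -2.09 in HFD+Ex, -0.84 in HFD+PP, 0.05 in HFD and -1.36 in CD liver, which put HFD+Ex lowest as for the smooth muscle genes. Pdlim3, a muscle cytoskeleton gene, was 4.55-fold lower. The largest lower bounds after Gpnmb were Ifnlr1, the interferon lambda receptor (at least 8.92-fold, row 383), and Thbs4 (at least 5.06-fold, row 335), both bright on the HFD array alone. Xist, the RNA that silences an X chromosome in females, was at least 3.88-fold lower (row 383) and also bright on the HFD array alone, with -6.78 in HFD+Ex, -7.32 in HFD+PP, -2.70 in HFD and -7.29 in CD liver of these male mice. As the median over its probes, Xist differed by 0.17 in liver. In ileum the same Xist probe (row 383) was well above background in HFD and not in HFD+Ex, with a difference of -2.93 as a bound. The HFD ileum array, like the HFD liver array, was in the first row of its slide. Of the 174 spots bright on that ileum array and near background on the other ileum arrays, 103 lay in rows 337 to 384. Whether the ileum value reflects place on the array or Xist RNA was not tested. In both fat depots and colon Xist was not well above background on either array.

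Beside the matrix and macrophage lists, the other tissues gave these medians for HFD+Ex minus HFD. The matrix list had -0.56 in mesenteric fat, -0.59 in brown fat, 0.36 in ileum and 0.09 in colon. Lipid-associated macrophage genes had -1.48 in mesenteric fat, with 12 of 18 fallen (3.77% of all genes measured there), -1.06 in brown fat, with 9 of 18 fallen (3.22%), -0.22 in ileum and 0.12 in colon. Smooth muscle genes had -0.43 in mesenteric fat, 0.06 in brown fat, 0.32 in ileum and 0.16 in colon. For the matrix and macrophage lists liver and both fat depots lay below 0, and for the matrix and smooth muscle lists ileum and colon lay above 0. Differences between tissues were not tested. In ileum and colon, as in liver, HFD+Ex was in the second row of arrays of its slide and HFD in the first. In both fat depots HFD+Ex and HFD were on different slides, with HFD+Ex in the first row and HFD in the second. Place and diet cannot be told apart in these tissues either. In liver itself, HFD+PP minus HFD had medians of -0.78 for the matrix list, -0.72 for lipid-associated macrophage genes and -0.36 for chemokines, from the same HFD array. HFD+Ex minus HFD+PP had -0.01, 0.03 and -0.09 for these lists, with none of 23 matrix genes past 2-fold.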

How the data were processed

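RNA pooled from 7 mice per diet was measured on 1 one-colour Agilent array for each of 5 tissues and 4 diets. Per the file headers, Feature Extraction 11.5.1.1 with protocol GE1_1105_Oct12 gave each spot a background-subtracted intensity on a linear scale. The authors also deposited a series matrix of intensity values. Its columns were each array's processed signal times 1 factor, so its scale is linear and uncentred, and what the factor was set to is not given in the sources used here. The liver column medians were 54.7 for HFD+Ex, 54.3 for HFD+PP, 53.5 for HFD and 54.8 for CD.

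Control spots (3671 of 62976) and flagged spots were left out, spots of 1 probe were averaged, and log2 of the signal minus the array's 75th percentile was taken. No spot was saturated. Accessions were matched to a RefSeq gene table (GRCm38.p6): 28026 of 55681 probes had a symbol, and the other 27655 were not used. A gene was represented by the probe with the highest mean over the 20 arrays, where most of its spots had to be well above background. The floors were -4.66 for HFD+Ex and -5.01 for HFD. Of the genes past 2-fold, 23 had another probe measured on both arrays, and in 2 it went the other way.

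The genes named are the 15 highest and 15 lowest on both arrays, the 6 largest bounds each way, up to 6 members per list past 2-fold, the sterol genes and a fixed set, a few of which are not reported here. The highest, the lowest and the bounds leave out predicted gene symbols and genes with another measured probe going the other way. Other genes are named as list members or were chosen after their values were seen. The members, the 46 lists and this rule were chosen with earlier results of these data known. With 1 array per diet no test was run; the number of arrays limits the precision. Calculations used pandas 2.3.3 and numpy 2.4.6 and were tested on simulated data. The normexp alternative (limma 3.58.1, R 4.3.3, offset 50) used the median spot signal, because the mean signal is not used here. The alternatives are given in the closing section, and no array could be left out.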

Additional observations from a re-analysis of the deposited data

Results flagged for a closer look

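Some genes that fell in liver went at least 2-fold the other way in another tissue of the same mice; these differences between tissues were not tested, and 1 array stands behind each diet in each tissue. For HFD+Ex minus HFD, Cfd (row 111) was -2.28 in liver, 1.79 in ileum and 1.32 in colon. Gpnmb (row 235) was -3.41 in liver, as a bound, and 1.70 in colon, and Ccl3 (row 146) was -1.41 in liver and 2.00 in colon. Fos was -1.23 in liver and 1.03 in ileum, and Pdlim3 was -2.19 in liver and 1.15 in brown fat. In mesenteric fat 4 genes were higher with extract that fell in liver: Cxcl5 (2.33, and -1.08 in liver, as a bound), the lymphocyte homing receptor Ccr7 (2.51, and -1.15 in liver), the B cell factor Spib (2.64, and -1.08 in liver) and Ly6d (2.39, and -1.85 in liver). Ccr7 is listed among T and NK cell markers and Spib among B and plasma cell markers. Of these lists 15 of 23 and 14 of 16 members rose in mesenteric fat, beside 607 of all 16642 measured genes. There, 19 of 19 exocrine pancreas markers also rose, and 13 of 14 intestinal epithelium markers fell, where 3.77% of all measured genes did. The tissue make-up of each fat pool was not tested. A further signal lay in the 27655 probes without a gene name, which no comparison above uses. Of the 10363 of them well above background on both liver arrays, 118 were at least 2-fold higher and 47 at least 2-fold lower in HFD+Ex than in HFD liver, and 99 of the 118 and 22 of the 47 lay in array rows 1 to 192.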

How the results depend on the processing

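No paired analysis was possible because each diet has 1 array. Main counts were 218 higher and 211 lower, 50.8% of calls higher. They were 30 and 43 (41.1% higher) after normexp, 71 and 154 (31.6%) for genes above background on both arrays, 808 and 690 (53.9%) without a filter on dim probes, 512 and 705 (42.1%) at 1.5-fold, and 192 and 73 (72.5%) without genes at least 4 times brighter in another tissue. With alternatives added after seeing the data, they were 24 and 114 (17.4%) without array rows 1 to 192, and 19 and 80 (19.2%) in rows 193 to 336 alone. Quantile normalization, the percentile over bright probes, the authors' matrix, the median over probes and the probe chosen on liver arrays gave 178 to 240 higher and 214 to 259 lower.

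The cholesterol median was 0.66 after quantile normalization and from 0.70 to 0.86 otherwise, and Mvd, at 2.00-fold, is the member nearest the threshold. The lipid droplet median was 0.0095 in the set without genes typical of other tissues, -0.37 without rows 1 to 192 and -0.46 in rows 193 to 336. The matrix median was -0.60 after normexp, -0.30 without genes typical of other tissues, -0.64 without rows 1 to 192 and -0.62 in rows 193 to 336. The smooth muscle median was -0.57 after normexp, -0.45 without the filter and for the median over probes, and -0.67 without rows 1 to 192. The lipid-associated macrophage median was -0.49 after normexp, -0.52 on both arrays, -0.56 for the median over probes, -0.080 without genes typical of other tissues and -0.55 without rows 1 to 192. The chemokine median was -0.50 in rows 193 to 336. The cholangiocyte median was 0.037 after normexp, against -0.15, and the T and NK cell median, -0.11 in the main setting, was 0.048 after normexp and 0.10 without the genes of other tissues. Under the median over probes, Synpo2 was 0.24, against -1.97 in the main setting, Xist 0.17, against -1.96, and Mmp12 0.016, against -1.09. Dropping genes or rows leaves fewer members; the cause was not tested for the others. Over all settings, 49 list medians moved by more than the technical spread without changing sign, those printed here included, as did 143 values of named genes, 88 of them after normexp. Genes near background limit what these arrays can show.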

Other observations

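The following 6 genes known from platelets belong to no list, were chosen after their values were seen and are given as single values. Gp9 (row 364), a chain of the receptor for von Willebrand factor, had -4.08 in HFD+Ex, -3.64 in HFD+PP, -1.99 in HFD and -3.12 in CD liver. Pf4, platelet factor 4, had -0.29 in HFD+Ex, -0.11 in HFD+PP, 1.07 in HFD and -0.48 in CD liver. Ppbp, a platelet chemokine, differed by -1.40, Treml1, a receptor of platelet granules, by -1.47 and F13a1, a clotting factor of platelets and macrophages, by -2.18. Itga2b, the platelet integrin, differed by -0.25. The amount of blood left in each pool is not stated in the labels.

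Among lists not described above, 22 of 25 genes of endoplasmic reticulum stress and the amino acid response were above 0, with none past 2-fold and a median of 0.18. Creld2 differed by 0.71, Manf by 0.52 and Hspa5, the chaperone BiP, by 0.40. Genes of MHC class II presentation were below 0 in 9 of 10, with a median of -0.50 and none past 2-fold. Interferon response genes were below 0 in 23 of 30, with a median of -0.21. Of 21 clock genes none passed 2-fold; Arntl, which encodes BMAL1, differed by -0.78, Bhlhe41 by 0.78 and Nr1d1, a repressor of Arntl, by 0.44. Endothelial markers had a median of -0.02 over 16 genes.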
